A study of Mus musculus with 2 samples.

Results

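The 9 genes described here encode proteases that cut the extracellular matrix, parts of the plasminogen system, and inhibitors of both. They are Mmp12, Mmp14, Mmp19, Adam8, Timp1, Plau, Plaur, Serpinb2 and Thbs1, taken by symbol from the 31053 genes of the feature tables, and all 9 were found. They were measured in single cells from the vitreous of C57BL/6 mouse eyes injected with zymosan, a yeast cell wall preparation that causes sterile inflammation. In the aCXCR2 library the mice had received an antiserum against CXCR2, a chemokine receptor of neutrophils, and in the other they had received NRS, the serum used for comparison. All animals carried the zymosan injection, no uninjected eye was among these samples, and the sources used here give neither the age of the mice nor the number pooled in a library. Cells had been selected with beads against the neutrophil surface protein Ly6G.

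Matrix metalloproteinases (MMPs) are zinc proteases that cut collagens, elastin and other matrix proteins, and TIMPs bind to their active sites and block them. In the plasminogen system, urokinase (encoded by Plau) binds its receptor (Plaur) at the cell surface and turns plasminogen into plasmin, which dissolves fibrin and can activate pro-MMPs. Inhibitors of the serpin family, such as PAI-2 (encoded by Serpinb2), inactivate urokinase. Neutrophils carry ready-made MMPs in granules, whereas macrophages make proteases such as MMP12 when stimulated.

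In the GENCODE M21 annotation (GRCm38), Mmp12 (ENSMUSG00000049723) lies on chromosome 9 at 7344381 to 7369499, and Serpinb2 (ENSMUSG00000062345) on chromosome 1 at 107511423 to 107535478. Timp1 (ENSMUSG00000001131) lies on chromosome X at 20870166 to 20874735, overlapping Syn1 on the other strand. Mmp14 (ENSMUSG00000000957) lies on chromosome 14 at 54431612 to 54445364 and Plau (ENSMUSG00000021822) on the same chromosome at 20836660 to 20843385. Mmp19 (ENSMUSG00000025355) lies on chromosome 10 at 128790910 to 128800824 and Thbs1 (ENSMUSG00000040152) on chromosome 2 at 118111876 to 118127133. Adam8 (ENSMUSG00000025473, minus strand) and Plaur (ENSMUSG00000046223) lie on chromosome 7 at 139978932 to 139992562 and 24462484 to 24475968. Mmp12, Mmp19 and Thbs1 also overlap genes on the other strand, and the sources used here do not say whether the counting used strand.

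Each group was 1 library, so no value has a replicate, no test was possible, and all intervals are 95% intervals for counting error only. After the cell filter the aCXCR2 library kept 4826 of 5551 barcodes, with a median of 10383.5 UMIs (unique molecules) per cell, and the NRS library kept 5655 of 7314, with a median of 4759. The libraries shared 53 kept barcodes, and doublets could not be removed reliably. Clusters were classed from marker genes as neutrophil-like (2620 aCXCR2 and 2635 NRS cells), macrophage-scoring (1793 and 621), photoreceptor-like (272 and 820) or other (141 and 1579). Ly6g itself stood at 119.7 CPM (UMIs of the gene scaled to a common total) in aCXCR2 neutrophil-like cells and 16.1 CPM in NRS neutrophil-like cells, while S100a8 was found in 99.9% and 91.8% of them. Macrophage-scoring cells, at 37.2% of aCXCR2 and 11% of NRS cells, were present in spite of the Ly6G selection. That class includes cluster 8, led by S100a4 and MHC class II genes, whose leading genes held more dendritic cell markers than macrophage markers, so single clusters are given by number beside the class. Different clusters made up the classes in the libraries. Neutrophil-like cells were mostly clusters 5, 6, 7 and 13 in aCXCR2 and clusters 1, 2 and 9 in NRS. Macrophage-scoring cells were mostly clusters 4, 8 and 11 in aCXCR2 and clusters 4, 11 and 12 in NRS.

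The genes fell into those found mostly in macrophage-scoring cells, those shared with neutrophil-like cells, and Plau, which was low throughout. In both libraries 7 of the 9 had a higher level in macrophage-scoring than in neutrophil-like cells, the exceptions being Plaur and Plau. For 6 of the 9, macrophage-scoring cells held over 50% of the gene's UMIs in both libraries. Those cells held 67.3% of the UMIs of all genes in aCXCR2 and 33.4% in NRS. Neither count was made over all genes, so they do not set the members apart from other genes. Photoreceptor-like cells, which are not known as a source of these genes, stood at most at 27.9 CPM (Timp1, NRS). Of the 224 UMIs behind that value 130 came from 1 cell, and without it the level was 11.8 CPM, so that 19.4 CPM (Timp1, aCXCR2) was then the highest. Values in these cells are given for comparison, as a level that free RNA could leave in cells of their own depth.

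**Figure D1:**
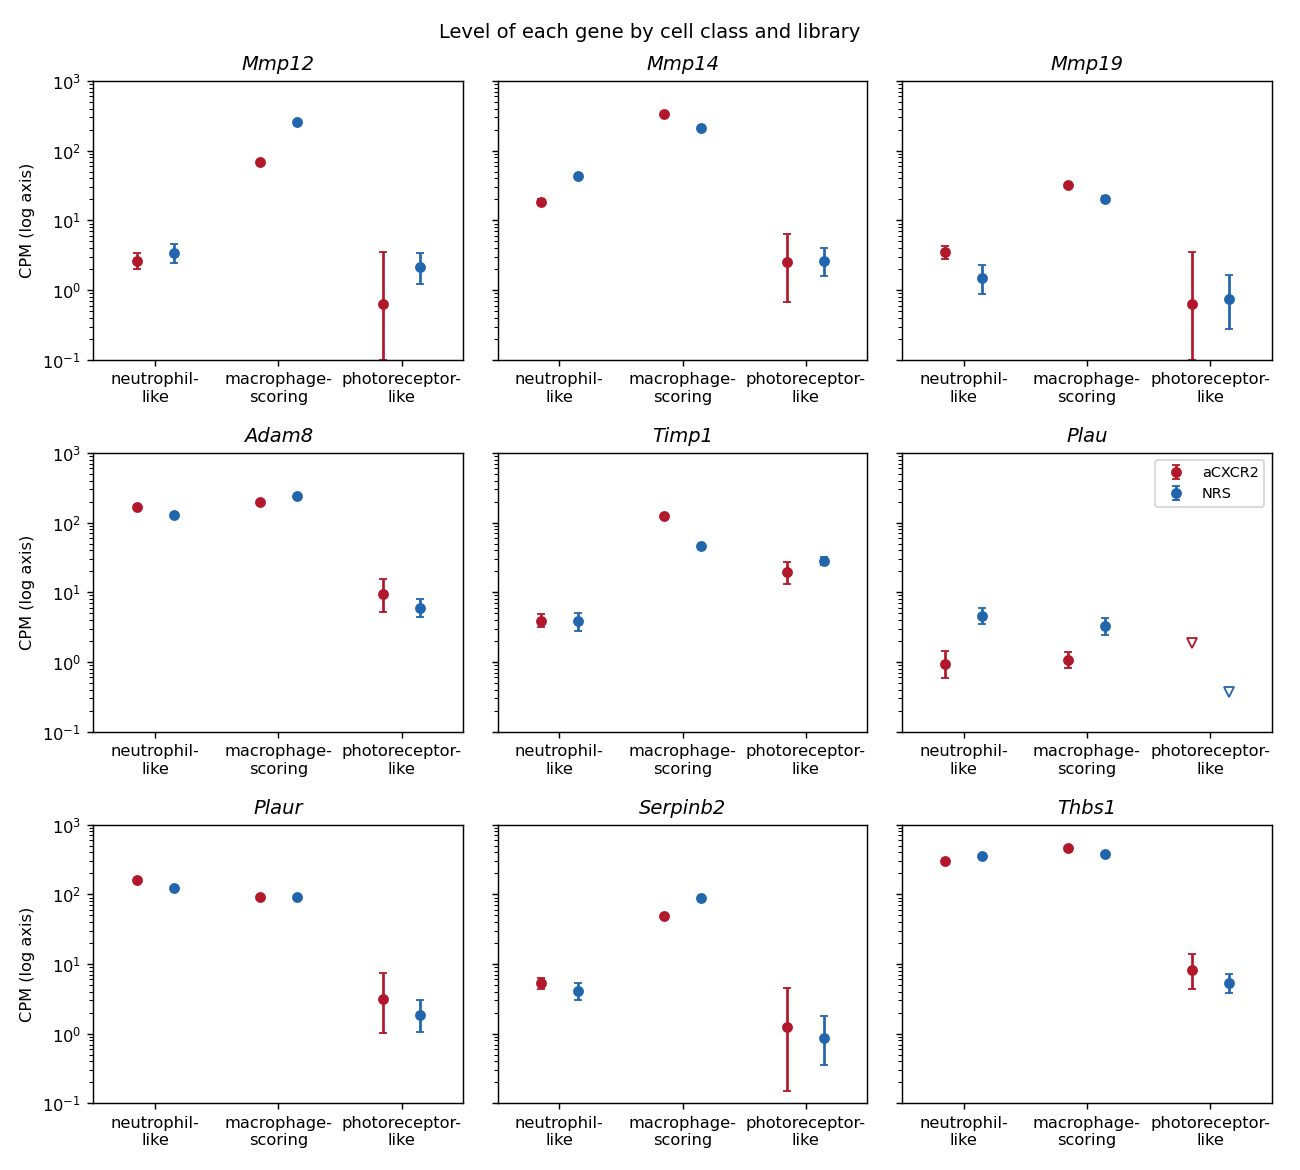
Level of each of the 9 genes in CPM, on a log axis, in 3 cell classes of the aCXCR2 library (red, left of each pair) and the NRS library (blue). Points are summed UMIs over total UMIs, bars are exact Poisson 95% intervals that cover counting error only and are cut off at the lower edge, and open triangles mark the limit that 0 UMIs allow (3 counts). Mmp12, Mmp14, Mmp19, Timp1 and Serpinb2 stand highest in macrophage-scoring cells in both libraries, while Adam8, Plaur and Thbs1 reach at least 90.2 CPM in both immune classes.

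Mmp12, the macrophage elastase, lay mostly in 1 cluster of macrophage-like cells and was lower there in aCXCR2. Cluster 11, led by Cxcl3, Arg1, Ptges and Fn1, held 88.5% of the Mmp12 UMIs of the aCXCR2 library and 86.2% of those of the NRS library. There Mmp12 stood at 427 CPM (413 to 441) in aCXCR2 and at 1077 CPM (1043 to 1112) in NRS, a log2 ratio of -1.34 (-1.40 to -1.27), which was -0.999 with the libraries clustered separately. In neutrophil-like cells it stood at 2.62 CPM in aCXCR2 and 3.42 CPM in NRS, beside 0.627 and 2.11 CPM in photoreceptor-like cells. Cluster 12, led by Spp1 and Gpnmb, had 6 Mmp12 UMIs in aCXCR2 and 250 in NRS, of which 171 came from 1 NRS cell.

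Within cluster 11 the transcript was concentrated in a minority of cells, and that minority was smaller in aCXCR2. At an equal depth of 1000 UMIs per cell, Mmp12 was seen in 11.5% of aCXCR2 cells (8.19 to 15.6%) and 31.5% of NRS cells (24.6 to 39.2%). Without thinning, 27.2% of aCXCR2 cells and 47.3% of NRS cells had a UMI, at median depths of 26401 and 21713 UMIs. Cells with at least 10 Mmp12 UMIs numbered 41 of 313 in aCXCR2 and 44 of 169 in NRS, and they held 96.4% and 95.9% of the cluster's Mmp12 UMIs. The median level of the cells so selected was 2175 CPM in aCXCR2 and 2774 CPM in NRS. In photoreceptor-like cells thinned to the same depth, Mmp12 was seen in 0.461% of aCXCR2 and 0.415% of NRS cells.

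Serpinb2, which encodes the urokinase inhibitor PAI-2, shared cluster 11 with Mmp12 in NRS but was spread over more clusters in aCXCR2. In cluster 11 it stood at 190.5 CPM (181 to 200.2) in aCXCR2 and 398 CPM (377 to 419) in NRS, a log2 ratio of -1.06 (-1.17 to -0.96). The ratio fell short of 2-fold in 4 of 8 alternatives, between -0.95 and -0.83. That cluster held 54.6% of the gene's UMIs in aCXCR2 and 93.6% in NRS. Cluster 4, led by Ccl8, Selenop, Pf4 and C1qa, held 530 Serpinb2 UMIs in aCXCR2 and 2 in NRS. The levels were 21.4 CPM (19.6 to 23.3) in aCXCR2 and 0.490 CPM (0.059 to 1.77) in NRS, a log2 ratio of 5.45 (3.59 to 8.50). In cluster 8 the levels were 36.8 CPM (34.0 to 39.8) in aCXCR2 and 5.74 CPM (1.86 to 13.4) in NRS, the NRS value resting on 5 UMIs. Few cells carried it there: 8.24% of aCXCR2 cells of cluster 4 had a UMI and 13 of 752 had at least 10.

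Mmp12 and Serpinb2 were also detected in some of the same cells. Among thinned cells of cluster 11, Serpinb2 was seen in 7 of 36 aCXCR2 cells with Mmp12 (19.4%, 8.19 to 36.0%) and in 5.05% (2.79 to 8.33%) of those without it, intervals that overlap slightly. In NRS it was seen in 17 of 53 cells with Mmp12 (32.1%, 19.9 to 46.3%) and in 9.57% (4.87 to 16.5%) of those without. Over 26 sums of cells by cluster and library, each of at least 50 cells, the Pearson r of their log2(CPM + 10) values was 0.86. These points share libraries, and all high values come from cluster 11. By the same measure over 7095 genes, Mmp12 had U90926 (0.89) and Serpinb2 among the 3 most like it, and those most like Serpinb2 were U90926 (0.89), Ccl24 (0.87) and Mmp12.

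Timp1, a secreted inhibitor of MMPs, was the member whose level was at least 2-fold higher in aCXCR2 macrophage-scoring cells. It stood at 124 CPM (122 to 127) in aCXCR2 and 46.0 CPM (42.7 to 49.4) in NRS, a log2 ratio of 1.44 (1.33 to 1.55). With the stricter cell filter the ratio was 0.88, which is less than 2-fold. The same direction was seen cluster by cluster. In cluster 11 the levels were 453 CPM (438 to 468) in aCXCR2 and 179 CPM (165 to 193) in NRS. In cluster 4 they were 54.2 CPM (51.4 to 57.2) in aCXCR2 and 8.57 CPM (5.97 to 11.9) in NRS, a log2 ratio of 2.66 (2.18 to 3.19). In cluster 8 they were 101 CPM in aCXCR2 and 35.6 CPM in NRS, and in cluster 12 13.2 CPM in aCXCR2 and 4.09 CPM in NRS. The photoreceptor-like level was 19.4 CPM in aCXCR2 and, without the 1 cell named above, 11.8 CPM in NRS. The cluster 12 values and the NRS value of cluster 4 lie below the level of their own library, within what free RNA could leave.

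At equal depth Timp1 was seen in 19.2% of aCXCR2 cells of cluster 11 (15 to 24%) and 7.74% of NRS cells (4.18 to 12.9%). Cells with at least 10 Timp1 UMIs numbered 68 of 313 in aCXCR2 and 13 of 169 in NRS. Timp1 was thus higher and Mmp12 lower in aCXCR2 within 1 cluster. In aCXCR2 Timp1 was seen in 27.8% (14.2 to 45.2%) of cells with Mmp12 and 18.1% (13.7 to 23.1%) of cells without, and in NRS in 7.55% (2.09 to 18.2%) and 7.83% (3.64 to 14.3%), intervals that overlap in both libraries. Over the 26 sums, the genes whose pattern was most like that of Timp1 were Pcdh7 (r = 0.92), Cav1 (0.91) and Ass1 (0.91). The highest Timp1 level among these sums, 968 CPM, was that of the 61 NRS cells of cluster 15, which is not a macrophage cluster. These r values therefore do not describe macrophage-scoring cells only.

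**Figure D2:**
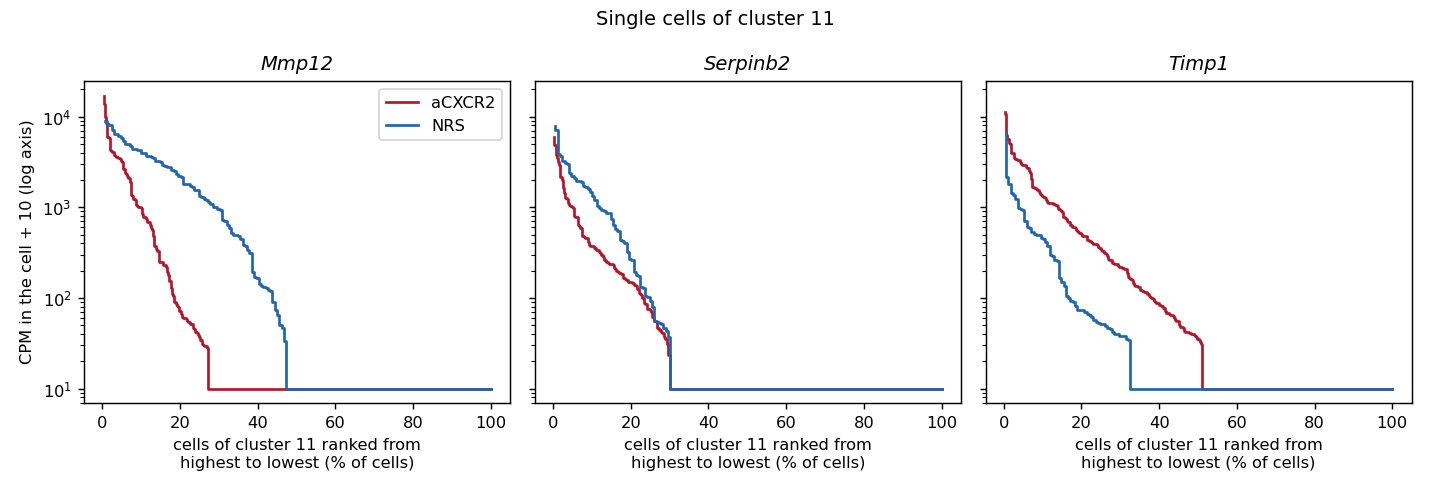
Single cells of cluster 11 ranked from the highest to the lowest level of Mmp12, Serpinb2 and Timp1, with the percent of cells on the x axis and CPM + 10 in the cell on a log y axis, for aCXCR2 (red, 313 cells) and NRS (blue, 169 cells). The Mmp12 curve reaches its base at 27.2% of aCXCR2 cells and 47.3% of NRS cells, and the Timp1 curve lies higher in aCXCR2.

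The promoters of these members are shown because the 3 genes share cluster 11 but not their direction. RefSeq (build GRCm38.p6) gave promoters, from 250 bases before to 50 after a start, for 6 of the 9 members in 8 entries. They were searched on both strands for TGANTCA (bound by AP-1), GGANTTCC (NF-kB) and TTGCNNAA (C/EBP), which occurred in 7.81%, 4.77% and 10.8% of all 32851 promoters of that length. Matches are in capitals below, and no stretch matched more than 1 motif. Positions are those of the reference, since the sources used here name no mouse build for the files.
Mmp12, upstream start, chr9:7344147-7344446, plus strand: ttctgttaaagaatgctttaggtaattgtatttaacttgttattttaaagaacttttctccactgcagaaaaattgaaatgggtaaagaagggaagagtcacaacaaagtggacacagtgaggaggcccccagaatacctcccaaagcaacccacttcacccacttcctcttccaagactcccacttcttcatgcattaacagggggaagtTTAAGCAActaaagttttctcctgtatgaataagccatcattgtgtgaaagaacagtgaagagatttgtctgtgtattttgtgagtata
Mmp12, downstream start, chr9:7347124-7347423, plus strand: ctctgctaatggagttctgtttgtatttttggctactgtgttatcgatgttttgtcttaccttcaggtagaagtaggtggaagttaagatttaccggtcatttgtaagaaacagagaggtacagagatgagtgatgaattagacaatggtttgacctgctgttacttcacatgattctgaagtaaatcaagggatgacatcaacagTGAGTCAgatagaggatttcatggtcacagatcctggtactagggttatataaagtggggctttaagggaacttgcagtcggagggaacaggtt
Serpinb2, chr1:107511173-107511472, plus strand: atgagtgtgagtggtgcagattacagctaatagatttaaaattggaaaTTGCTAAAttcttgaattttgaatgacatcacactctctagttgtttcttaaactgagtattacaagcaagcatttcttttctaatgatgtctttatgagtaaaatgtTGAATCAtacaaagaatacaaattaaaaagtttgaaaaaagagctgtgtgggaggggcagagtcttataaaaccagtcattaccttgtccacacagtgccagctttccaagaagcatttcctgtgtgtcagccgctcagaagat
Timp1, chrX:20869916-20870215, plus strand: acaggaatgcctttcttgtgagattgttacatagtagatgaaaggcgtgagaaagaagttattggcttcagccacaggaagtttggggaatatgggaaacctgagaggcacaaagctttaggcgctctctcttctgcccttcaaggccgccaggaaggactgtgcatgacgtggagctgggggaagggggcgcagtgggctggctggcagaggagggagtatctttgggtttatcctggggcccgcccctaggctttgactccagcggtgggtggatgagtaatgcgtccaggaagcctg
TGANTCA matched at the downstream Mmp12 start (TGAGTCA) and at Serpinb2 (TGAATCA), with a different base at the open position. TTGCNNAA matched at the upstream Mmp12 start and at Serpinb2. A second Serpinb2 entry (chr1:107511260-107511559, plus strand), not printed here, held the same TGAATCA and another match to TTGCNNAA (TTCAGCAA). None of the 3 motifs was in the Timp1 window, and GGANTTCC was in none of the 8 entries. A match is a string of letters and was not tied here to any binding. The Plaur promoter (chr7:24462233-24462532, plus strand) also held TGANTCA and TTGCNNAA, and that of Adam8 (chr7:139992513-139992812, minus strand) held TTGCNNAA.

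Mmp14, the membrane-bound protease that activates pro-MMP2, was the most widely detected of the 3 member MMPs in macrophage-scoring cells. It stood at 338 CPM (334 to 343) in aCXCR2 and 214 CPM (207 to 221) in NRS, a log2 ratio of 0.66 (0.61 to 0.72), and those cells held 97.3% and 76.4% of its UMIs. The level was spread over all 4 large macrophage-scoring clusters. It was 377 CPM in aCXCR2 and 266 CPM in NRS in cluster 4, 303 and 141 CPM in cluster 8, 373 and 305 CPM in cluster 11, and 207 and 151 CPM in cluster 12. At equal depth 27.9% of aCXCR2 cells (25.8 to 30%) and 17.1% of NRS cells (14.2 to 20.3%) of the class had a Mmp14 UMI.

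In neutrophil-like cells Mmp14 ran the other way, at 18.6 CPM (16.9 to 20.4) in aCXCR2 and 43.1 CPM (39.6 to 46.8) in NRS. Both levels were below the 50 CPM set for counting 2-fold differences. The log2 ratio was -1.21 (-1.40 to -1.03) against a median of -0.42 for all genes measured there. That ratio stayed between -1.21 and -0.54 in 12 alternatives. The 14 macrophage markers, all above 0 in both libraries, summed to 4506 CPM in aCXCR2 and 6867 CPM in NRS neutrophil-like cells. Single markers differed in direction there. Adgre1 had 60.8 CPM in aCXCR2 and 119 CPM in NRS, whereas Csf1r had 264 CPM in aCXCR2 and 224 CPM in NRS. The part of these markers in the Mmp14 result was not tested. Cluster 6, led by Wfdc21 and Mmp8, had 30.8 CPM in aCXCR2 and 95.3 CPM in NRS, whereas cluster 2, led by Ccl3 and Cxcl2, had 54.0 CPM in aCXCR2 and 43.7 CPM in NRS. Mmp14 was most like Mdfic (r = 0.95), Nrp2 (0.94) and Cndp2 (0.94).

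Mmp19, a secreted MMP of broad tissue distribution, was found in the same clusters as Mmp14 at low counts, with r = 0.85 between them over the 26 sums. It stood at 32.4 CPM (30.9 to 33.9) in aCXCR2 and 20.4 CPM (18.2 to 22.7) in NRS macrophage-scoring cells, below the 50 CPM set for counting 2-fold differences. Those cells held 95.1% of its aCXCR2 UMIs and 89.0% of its NRS UMIs. In neutrophil-like cells it had 3.47 CPM in aCXCR2 and 1.47 CPM in NRS, a log2 ratio of 1.24 (0.50 to 2.04), opposite in direction to that of Mmp14 there. Vwa5a (0.97), Dab2 (0.96) and the noncoding RNA Bvht (0.96) were most like it.

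Adam8, Plaur and Thbs1 were the members well detected in neutrophil-like cells, and their levels differed more between neutrophil clusters than between the libraries' class values. Adam8 encodes a membrane protease found on granulocytes and monocytes that sheds surface proteins. In neutrophil-like cells it had 166 CPM (160 to 171) in aCXCR2 and 128 CPM (122 to 134) in NRS, a log2 ratio of 0.38 (0.29 to 0.46). At equal depth 15% of aCXCR2 and 11.3% of NRS neutrophil-like cells had a UMI, against 0.922% and 1.11% of photoreceptor-like cells. The sign of that ratio turned in 5 of 12 alternatives, among them the class without cluster 1, with a range of -0.29 to 1.05. Cluster 9, led by Hdc, Cxcr2 and Il1r2, had the highest level, with 690 CPM (587 to 805) in its 58 aCXCR2 cells and 489 CPM (457 to 523) in its 486 NRS cells. Cluster 1, led by Gsto1, had 26.2 CPM in aCXCR2 and 39.4 CPM in NRS. In cluster 11 the order of the libraries was the opposite of cluster 9, with 375 CPM (361 to 388) in aCXCR2 and 537 CPM (513 to 562) in NRS.

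Plaur, the urokinase receptor, was the 1 member with a clearly higher level in neutrophil-like than in macrophage-scoring cells. Neutrophil-like cells had 161 CPM (156 to 166) in aCXCR2 and 122 CPM (117 to 129) in NRS, and macrophage-scoring cells 91.3 CPM (88.8 to 93.9) in aCXCR2 and 90.2 CPM (85.6 to 95) in NRS. Neutrophil-like cells held 41.7% of the gene's UMIs in aCXCR2 and 40.3% in NRS. Cluster 9 again stood highest, at 450 CPM (368 to 544) in aCXCR2 and 247 CPM (224 to 271) in NRS. Of the 4 large macrophage-scoring clusters, the unnamed cluster 8 included, cluster 11 stood highest, at 196 CPM in aCXCR2 and 208 CPM in NRS, and cluster 4 lowest, at 44.0 CPM in aCXCR2 and 44.1 CPM in NRS. The correlation of Plaur with Adam8 over the 26 sums was 0.85, and the genes most like Plaur were Iqgap1 (0.96), Rnf149 (0.95) and Slc16a3 (0.94). Adam8 itself was most like Tgm2 (0.91), Fcgr3 (0.88) and Gpr35 (0.87).

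Plau, which encodes urokinase, the ligand of Plaur, was barely detected. Neutrophil-like cells had 22 UMIs in aCXCR2 and 59 in NRS, or 0.943 CPM (0.591 to 1.43) and 4.58 CPM (3.49 to 5.91), and macrophage-scoring cells had 1.07 CPM (0.816 to 1.38) in aCXCR2 and 3.28 CPM (2.45 to 4.30) in NRS. In photoreceptor-like cells 0 UMIs were seen in either library, which allows up to 1.88 CPM in aCXCR2 and 0.373 CPM in NRS. Levels were thus lower in aCXCR2 in both classes, with log2 ratios of -2.28 (-3.06 to -1.55) and -1.61 (-2.18 to -1.05). The unnamed cluster 0, led by Itpr2, Gadd45b and Gdf15 and made up of 46 aCXCR2 and 1091 NRS cells, held 34.5% of the NRS library's Plau UMIs. It stood there at 19.7 CPM (6.38 to 45.9, 5 UMIs) in aCXCR2 and 13.2 CPM (10.2 to 16.7) in NRS. Gdf15 (0.86), Wsb2 (0.84) and Gla (0.81) were most like Plau.

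Thbs1 encodes thrombospondin-1, a secreted matrix protein that binds CD36 and CD47, activates TGF-beta and inhibits new vessel growth. Its class levels were close in the libraries, with 299.6 CPM (293 to 307) in aCXCR2 and 355 CPM (345 to 366) in NRS neutrophil-like cells, and 459 CPM (453 to 465) in aCXCR2 and 384 CPM (375 to 394) in NRS macrophage-scoring cells. The neutrophil-like ratio was -0.25 (-0.30 to -0.19) and turned to 0.38 with TMM factors and 0.43 with median of ratios factors. Single clusters differed far more, and not in 1 direction. Cluster 9 had 2082 CPM (1901 to 2275) in aCXCR2 and 626 CPM (590 to 664) in NRS, a log2 ratio of 1.73 (1.58 to 1.89). Cluster 6 had 37.9 CPM in aCXCR2 and 137 CPM in NRS, a log2 ratio of -1.85 (-2.19 to -1.51). Cluster 2 had 688 CPM in aCXCR2 and 553 CPM in NRS, and cluster 1 had 41.5 CPM in aCXCR2 and 115 CPM in NRS.

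Thbs1 was carried by few neutrophil-like cells: 21.5% of those in aCXCR2 and 21.6% of those in NRS had a UMI, and the top 10% of cells held 94.9% and 88.6% of the class's Thbs1 UMIs. In macrophage-like cluster 4 it was higher in aCXCR2, with 536 CPM (527 to 545) in aCXCR2 and 221 CPM (207 to 236) in NRS, a log2 ratio of 1.28 (1.18 to 1.38). That ratio was below 2-fold with the stricter cell filter (0.40), at resolution 0.5 (0.56) and with the libraries clustered separately (0.94). In macrophage-like cluster 11 it was lower in aCXCR2, with 424 CPM (410 to 438) in aCXCR2 and 628 CPM (602 to 655) in NRS. In the unnamed cluster 8 it had 440 CPM in aCXCR2 and 622 CPM in NRS, a log2 ratio of -0.50. At resolution 0.5 clusters 4 and 8 fell into 1 merged cluster (1418 aCXCR2 and 214 NRS cells), to which the 0.56 belongs. With the libraries clustered separately the ratio was 0.99. The matched NRS cluster of 249 cells then held 48 cells of cluster 8 and 150 of cluster 4. Neither value is thus that of cluster 8 by itself. Its pattern was most like those of Ell2 (0.88), Tgm2 (0.83) and Lamp2 (0.83).

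**Figure D3:**
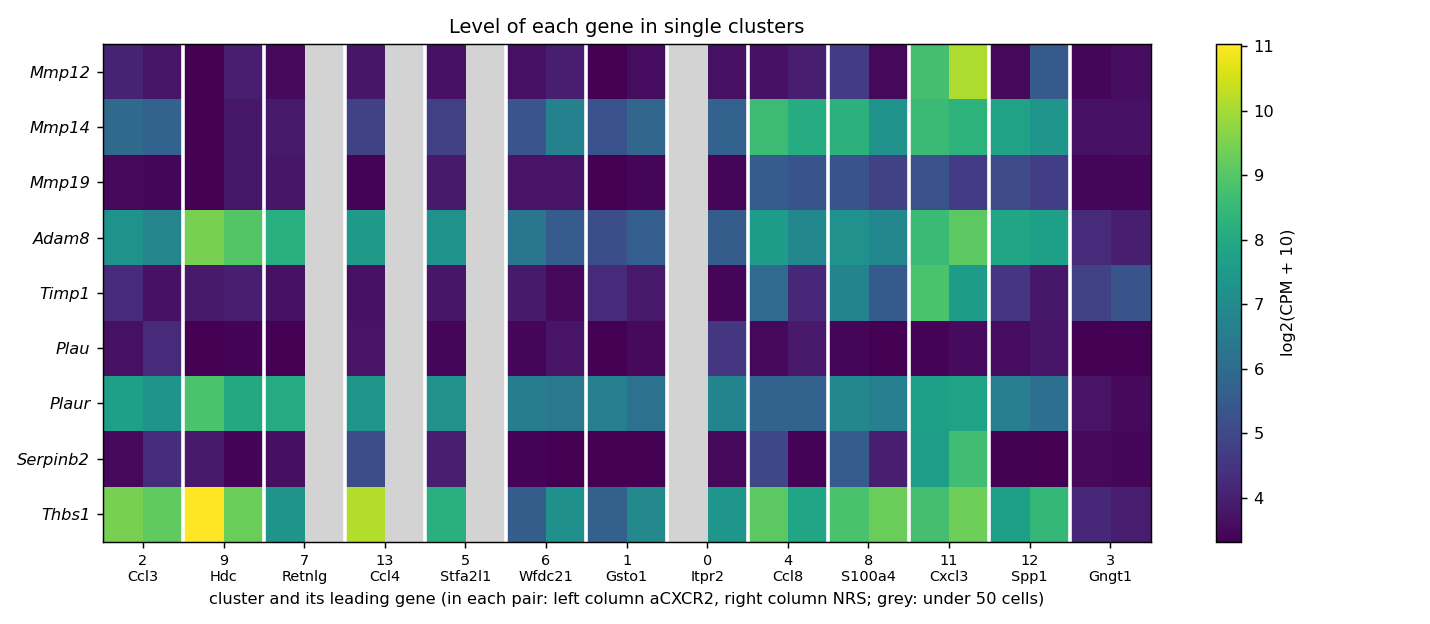
Level of each gene as log2(CPM + 10) in 13 clusters, each named below the axis by its number and leading gene, with aCXCR2 left and NRS right in each pair and grey where a library had under 50 cells. Mmp12 and Serpinb2 are brightest in cluster 11, Mmp14 is bright in clusters 4, 8, 11 and 12, and Thbs1 is brightest in the aCXCR2 cells of cluster 9 at 2082 CPM.

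Differences between the libraries were counted over genes that reached 50 CPM in either of them, calling a gene at 2-fold. A gene could thus enter through only the library where it was higher, as Timp1 did in macrophage-scoring cells and over all kept cells. The shares of all genes follow the same rule. In neutrophil-like cells 3 of the 9 members reached 50 CPM, and 0 were higher and 0 lower in aCXCR2, where 2.82% of all 3085 genes were higher and 10.8% lower. Their median log2 ratio was 0.38 and that of all genes -0.42. Scaling by TMM factors turned the split of all genes from 87 higher and 334 lower to 289 higher and 33 lower and their median to 0.20, and then 1 member was called higher. In macrophage-scoring cells 7 members reached it, and 1 was higher (Timp1) and 1 lower (Mmp12), beside 4.51% higher and 2.41% lower of 2860 genes. The members' median was 0.02 and that of all genes 0.11. Over all kept cells 6 members reached it, of which 2 were higher (Mmp14 and Timp1) and 0 lower, beside 4.79% and 11.2% of 3550 genes. With TMM factors the split of all genes there turned from 170 higher and 396 lower to 530 higher and 253 lower, and 4 members were higher. Macrophage-scoring cells supplied 67.3% of the aCXCR2 UMIs and 33.4% of the NRS UMIs, so the all-cell ratios of these genes, 1.33 for Mmp14 and 1.58 for Timp1, also carry that difference in makeup.

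Members were also called within single neutrophil-like clusters. In cluster 6 Mmp14 (-1.63) and Thbs1 (-1.85) were lower in aCXCR2, where 1.82% of 3239 genes were. Thbs1 was higher in cluster 9 (1.73), where 2.65% of 2835 genes were, and lower in cluster 1 (-1.47), where 2.99% of 3512 genes were. Mmp14 and Thbs1 in cluster 6 and Thbs1 in cluster 1 reached 50 CPM in NRS only. Ratios in clusters 1, 6 and 9 were not recomputed under the alternatives. Within the 4 large macrophage-scoring clusters up to 3 members were called. In cluster 4, 4 members reached 50 CPM, of which 2 were higher (Timp1 and Thbs1, the call of Thbs1 being lost in the 3 settings named above) and 0 lower, where 3.53% and 3.02% of 2944 genes were. In cluster 8, 5 members reached it, of which 2 were higher (Mmp14 and Timp1) and 0 lower, where 3.49% and 4.23% of 3005 genes were. There the ratio of Mmp14, 1.10, ranged from 0.39 to 1.29 and that of Timp1, 1.51, from 0.95 to 3.05 over 8 alternatives. In some of these the matched cluster also held cells of cluster 4. Timp1 reached 50 CPM in aCXCR2 only in clusters 4 and 8. In cluster 12, 4 members reached it and 0 were called, where 0.481% and 0.561% of 2497 genes were. In cluster 11, 7 members reached it, of which 1 was higher (Timp1) and 2 lower (Mmp12 and Serpinb2), where 1.57% and 1.08% of 2858 genes were.

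Markers of other cell types moved with the library in these clusters. Neutrophil markers did so in cluster 11, all 12 being above 0 and summing to 4008 CPM in aCXCR2 and 1411 CPM in NRS, and the 14 macrophage markers, 14 above 0, summed to 18429 and 22124 CPM. In cluster 4 the neutrophil markers summed to 2910 CPM in aCXCR2 (12 above 0) and 1189 CPM in NRS (11 above 0). The macrophage markers summed there to 53481 CPM in aCXCR2 and 90602 CPM in NRS (14 above 0 in both), and the 11 dendritic cell markers to 6369 CPM in aCXCR2 (7 above 0) and 2197 CPM in NRS (6 above 0). In cluster 8 the dendritic cell markers, 10 above 0 in both, summed to 13031 CPM in aCXCR2 and 34361 CPM in NRS, and the macrophage markers to 36564 CPM in aCXCR2 and 28747 CPM in NRS. The neutrophil markers in that cluster summed to 4524 CPM in aCXCR2 (12 above 0) and 1094 CPM in NRS (10 above 0). The 5 erythroid markers summed to 2250.1 CPM in aCXCR2 (5 above 0) and 8.47 CPM in NRS (4 above 0) in cluster 11, and to 473 CPM in aCXCR2 and 5625 CPM in NRS in cluster 8. The 10 lens markers summed to 5.02 CPM in aCXCR2 (7 above 0) and 305 CPM in NRS (10 above 0) in cluster 11. The part of these markers in the ratios was not tested.

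**Figure D4:**
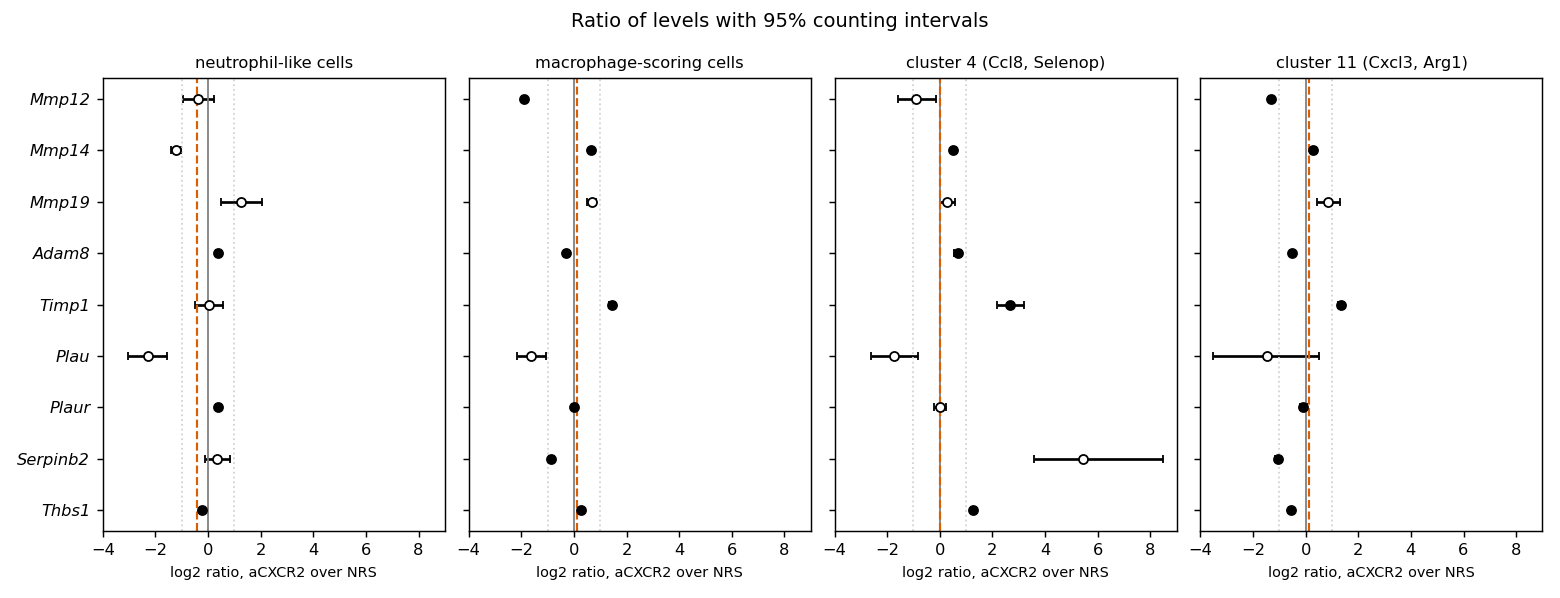
Log2 ratio of levels, aCXCR2 over NRS, for the 9 genes in neutrophil-like cells, macrophage-scoring cells, cluster 4 and cluster 11, with exact conditional 95% counting intervals. Filled points reach 50 CPM in 1 library and open points do not, the dashed line is the median of all genes measured in that group, and dotted lines mark 2-fold. Timp1 lies right of 2-fold in the 3 panels of macrophage cells, Mmp12 lies left of it in macrophage-scoring cells and cluster 11, and no filled point passes 2-fold in neutrophil-like cells.

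Other genes of these pathways were read from 7 lists. Of 16 other MMPs, 2 reached 50 CPM in neutrophil-like cells: the neutrophil collagenase Mmp8 was higher, at 423 CPM in aCXCR2 and 123 CPM in NRS, and the gelatinase Mmp9 stood at 1253 CPM in aCXCR2 and 1211 CPM in NRS. The same pair was measured in macrophage-scoring cells, where Mmp8 was lower, at 41.7 CPM in aCXCR2 and 84.0 CPM in NRS, and Mmp9 stood at 482 CPM in aCXCR2 and 890 CPM in NRS. In cluster 11 Mmp9 had 1072 CPM in aCXCR2 and 2400 CPM in NRS. Of 15 other ADAM and ADAMTS proteases, 2 were measured in neutrophil-like and 4 in macrophage-scoring cells, and 0 were called in either direction. Adam17, the TNF-releasing sheddase, had 101 CPM in aCXCR2 and 140 CPM in NRS neutrophil-like cells. None of the 4 neutrophil serine proteases (Elane, Ctsg, Prtn3 and Prss57) reached 50 CPM in either class.

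Among other protease inhibitors in macrophage-scoring cells, Timp2 and Serpinb6a were at least 2-fold lower in aCXCR2. Timp2, another MMP inhibitor, had 183 CPM in aCXCR2 and 444 CPM in NRS, a log2 ratio of -1.28, so its direction was opposite to that of Timp1. Serpinb6a, an intracellular serpin, had 67.5 CPM in aCXCR2 and 199 CPM in NRS, a log2 ratio of -1.56. Slpi, an inhibitor of neutrophil elastase, had 1068 CPM in aCXCR2 and 806 CPM in NRS. These class values mix clusters in different shares, cluster 12 making up 5.63% of aCXCR2 and 33.7% of NRS macrophage-scoring cells. In cluster 12, 0 inhibitors of the list were called, whereas in clusters 4, 8 and 11 at least 1 was lower in aCXCR2. In neutrophil-like cells 2 inhibitors were measured and 0 called, Slpi at 3707 CPM in aCXCR2 and 3247 CPM in NRS and Timp2 at 182 CPM in aCXCR2 and 131 CPM in NRS.

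Of 13 other plasminogen system genes and receptors, 7 were measured in neutrophil-like cells with 1 higher and 0 lower, and 9 in macrophage-scoring cells with 1 higher and 0 lower. S100a10, a part of a plasminogen receptor, was the first of these, at 58.7 CPM in aCXCR2 and 27.6 CPM in NRS. F10, the precursor of coagulation factor Xa, was the other, at 273 CPM in aCXCR2 and 135 CPM in NRS. Anxa2, the partner of S100a10, had 763 CPM in aCXCR2 and 548 CPM in NRS neutrophil-like cells. Of 9 thrombospondin family and partner genes, 4 were measured in neutrophil-like cells with 0 called. In macrophage-scoring cells 6 were measured with 0 higher and 1 lower, the receptor Cd36, at 21.7 CPM in aCXCR2 and 156 CPM in NRS. Within clusters 4, 8 and 12, 0 genes of this list were called lower, and within cluster 11, 1 was.

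Of 15 matrix substrates, 1 was measured in neutrophil-like cells, Spp1 (osteopontin), which was lower at 190.4 CPM in aCXCR2 and 412 CPM in NRS. In macrophage-scoring cells 3 were measured with 1 higher and 1 lower. Vcan, the proteoglycan versican, had 97.0 CPM in aCXCR2 and 14.6 CPM in NRS, and Spp1 had 1109 CPM in aCXCR2 and 5275 CPM in NRS. Fn1, fibronectin, had 1038 CPM in aCXCR2 and 981 CPM in NRS. The share of cluster 12, of which Spp1 is the leading gene, was 5.63% of aCXCR2 and 33.7% of NRS macrophage-scoring cells. Within cluster 11, Spp1 had 2491 CPM in aCXCR2 and 2679 CPM in NRS.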

How the data were processed

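Single-cell RNA was measured in 2 libraries, 1 per group, made with a 10x 3' kit per the labels' protocols. The deposited matrices hold UMI counts as whole numbers, without normalization, and software version 3.0.0 is given per the file headers. Cell Ranger and Seurat (no versions) appear in the submitters' processing notes, which list a human build, whereas the gene IDs are mouse.

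The 9 members, the gene lists and the marker lists were chosen with earlier results of these data known. The cell filter asked for 500 UMIs, 200 genes and no more than 10% of UMIs from mitochondrial genes. Kept cells were clustered together in scanpy 1.11.5 (2000 variable genes, of which the 1996 that are not members were used, 30 principal components, 15 neighbours, leidenalg 0.10.2 at resolution 1). Clusters were named from marker lists by a scoring rule set after the data were seen. It needs 3 markers at 50 CPM, a score of at least 0.25, no second class at 0.5 or above, and 20 cells. Macrophage-scoring clusters are those whose best class was monocyte or macrophage. Of 18 clusters, 5 stayed unnamed (0, 8, 10, 16 and 17). Scrublet called 4 aCXCR2 and 0 NRS cells as doublets, so it did not work, and none were removed.

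UMIs were summed per class or cluster and library and divided by total UMIs (CPM). Intervals are exact Poisson (levels), Clopper-Pearson (shares) and exact conditional (ratios) at 95%. A count of 0 allows up to 3 counts. PCR and animal variation are not in them. Those of levels and ratios also leave out variation between cells, and are too narrow where few cells hold most of the UMIs. Equal-depth shares thin each cell to 1000 UMIs, leaving out shallower cells (2580 aCXCR2 and 2520 NRS neutrophil-like, 1787 and 608 macrophage-scoring, 217 and 723 photoreceptor-like cells remained, and in cluster 11 313 and 168). Named genes were the members, the listed genes with the largest ratios or levels, and the 3 genes most like each member. An inhibitor that this rule names, and the inhibitor list's count and median in macrophage-scoring cells, are not reported here. The ratios were checked on simulated counts before use. Alternatives changed the filter, doublets, clustering, scaling (TMM from edgeR 4.0.16), weighting and minimum level.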

Additional observations from a re-analysis of the deposited data

Results flagged for a closer look

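The items here were flagged because the aCXCR2 over NRS ratio points one way in 1 class or cluster and the other way in another, by at least 1.5-fold in each and with counting intervals that exclude 0. With 1 library per group the difference between the ratios was not tested. Mmp14 had a log2 ratio of -1.21 in neutrophil-like cells, where both levels were below 50 CPM, and 0.66 in macrophage-scoring cells. Serpinb2 had 5.45 in cluster 4 (3.59 to 8.50, with 2 NRS UMIs) and 2.68 in cluster 8 (1.45 to 4.31), against -1.06 in cluster 11. Mmp12 had 3.73 in cluster 8 (1.24 to 9.04, with 1 NRS UMI) against -1.34 in cluster 11. Thbs1 had -1.85 in cluster 6 and 1.73 in cluster 9, both neutrophil-like. Those Thbs1 ratios were not recomputed under the alternatives, and cluster 9 had 58 aCXCR2 cells.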

How the results depend on the processing

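Of the counts of members recomputed under the alternatives, 82 stayed within 1.5 times the main value and 9 did not. Of the other recomputed results, which include the member ratios, 393 stayed and 194 moved. A ratio counted as moved when it left the main 95% counting interval. In neutrophil-like cells 0 members were at least 2-fold higher, but 1 with TMM factors and 2 with median of ratios factors, and 0 were lower, but 1 with a minimum of 10 CPM. In macrophage-scoring cells the stricter cell filter gave 0 higher in place of 1 and 2 lower in place of 1, and the mean of CPM per cell gave 2 lower. Over all cells 2 were higher, but 4 with TMM and 5 with median of ratios factors, and 0 lower, but 1 with the stricter filter. All tested genes split 87 higher and 334 lower in neutrophil-like cells, but 327 and 30 with median of ratios factors. Over all cells they split 170 and 396, but 596 and 244. In macrophage-scoring cells the ratio of Mmp12 stayed between -2.26 and -1.56 and that of Timp1 between 0.88 and 1.51 over 11 alternatives. In cluster 11, or the cluster holding most of its cells, Mmp12 stayed between -1.47 and -0.999, Serpinb2 between -1.20 and -0.83 and Timp1 between 1.21 and 1.68 over 8. The causes were not tested. Scaling of genes before clustering and the addition of cluster 0 to the neutrophil-like class were chosen after seeing the data, and TMM factors were not run for single clusters. Of the single clusters, only 4, 8 and 11 were recomputed. Counts of 5 UMIs or fewer in NRS limit Serpinb2 in clusters 4 and 8 and Mmp12 in cluster 8. No paired analysis was possible because each group was 1 library.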

Other observations

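Outside the immune classes, Timp1 and Thbs1 were also found in 2 small clusters. Cluster 15, named erythroid from its markers and led by globin genes with lens and matrix genes such as Cryab, Sparc and Mgp, had a Timp1 level of 226 CPM (29 UMIs, 15 cells) in aCXCR2 and 968 CPM (297 UMIs, 61 cells) in NRS. In NRS its Thbs1 level was 567 CPM. Cluster 17, led by Ttr and Ptgds with the pigment gene Dct, held 13 aCXCR2 and 7 NRS cells, with Thbs1 at 2741 CPM in aCXCR2 and 964 CPM in NRS. In photoreceptor-like NRS cells, 130 of 224 Timp1 UMIs came from 1 cell.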
